A study of Mus musculus with 208 samples.

Results

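The genes described here are 38 mouse genes for receptors of glutamate and GABA, the main excitatory and inhibitory transmitters of the brain. They were taken by name from the 39179 genes in the deposited tables, and all 38 were found. The rule is a list of names and holds no measured value, but the list was drawn up with earlier results of these data known. They make up 7 classes: 4 genes of AMPA receptors, 5 of kainate receptors, 7 of NMDA receptors, 1 of the delta type, 7 of metabotropic glutamate receptors, 12 of GABA-A receptors and 2 of GABA-B receptors. Their messenger RNA was measured by sequencing of polyadenylated RNA from the striatum of C57BL/6 mice. Knock-in mice were heterozygous, with 1 knock-in Htt allele and 1 normal allele. The lines are Q20, Q80, Q92, Q111, Q140 and Q175, named for the nominal number of CAG repeats in the knock-in allele. Each line was sampled at 2, 6 and 10 months. Wild-type mice (WT) housed with each of the 6 lines were sampled at 6 months, and those housed with Q20 also at 2 and 10 months. That makes 26 groups of 8 libraries, 4 labelled female and 4 male, except that Q20 at 10 months has 5 female and 3 male and Q80 at 2 months 3 female and 5 male. Q20, the shortest repeat, is the main reference, and it carries the knock-in allele as well. The labels do not say that each library is a separate animal, so p-values measure the spread between libraries.

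In Huntington's disease the medium spiny neurons of the striatum, GABA-releasing cells that receive glutamate from cortex and thalamus, are the cells hit hardest. AMPA and kainate receptors carry fast excitatory current, NMDA receptors admit calcium when glutamate coincides with depolarisation, and metabotropic receptors act through G proteins. GABA-A receptors are chloride channels built from 5 subunits around a pore, with delta-containing forms outside the synapse giving a steady inhibition, and GABA-B receptors are obligate pairs of Gabbr1 and Gabbr2 products that act through G proteins. Excess drive through NMDA receptors is a long-studied idea in this disease, and the levels of the subunit messages in the tissue are what these libraries record.

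Total counts ran from 29.1 M to 49.6 M per library. The median library held 31.9 M counts in the youngest age group, 41.0 M in the middle one and 33.0 M in the oldest. The tissue label was met: the 16 medium spiny neuron markers summed to between 4680 and 5460 FPKM (fragments scaled for gene length and library depth) in the Q20 libraries of 6 months, and none of them was at 0. Htt itself was lower in Q175 than in Q20 at 6 months, with a log2 change of -0.41 (SE 0.026, edgeR quasi-likelihood test, adjusted p = 6.27e-25, lower in 8 of 8 libraries). The mitochondrial share of counts was 17.2% to 24.1% in 7 of the 56 libraries of 2 months, and 11.4% to 14.9% in the other 49. Of these, 2 were Q20 and none Q175. One 2-month library labelled male, Q80 M3, had 0 counts on Y-linked genes, the only 1 of 104 labelled male. At 6 months the Q92 library F2 had the highest cortical marker score of its group, 2.90.

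In the Q20 libraries of 6 months the receptor messages spanned a wide range, compared here in FPKM because it allows for gene length. Gabbr1, the ligand-binding GABA-B subunit, was the most abundant at 231 ± 2.92 FPKM (SD, n = 8). Grin1, the obligatory NMDA subunit, followed at 144 ± 6.28 FPKM, and the AMPA subunits Gria1 and Gria2 stood at 86.7 ± 4.07 and 86.0 ± 2.99 FPKM, which do not differ beyond their spread. Gabrd, the delta subunit of GABA-A receptors, was at 67.5 ± 5.08 FPKM, Grik5, an auxiliary-type kainate subunit with high affinity, at 63.3 ± 6.19 and Grm5, which couples to phospholipase C, at 57.8 ± 4.89, so that Grik5 lay within the spread of Gabrd, while Gabrd and Grm5 were further apart than 1 SD of either. Gria3 and Gabra4 came next, both at 40.8 FPKM, and Grik2 at 35.4 ± 1.69. Of the NMDA receptor genes for the second subunit type, Grin2b at 19.7 ± 0.842 FPKM exceeded Grin2c at 15.02 ± 1.48, and Grin2d (2.30 ± 0.166) and Grin2a (2.20 ± 0.247) were near each other. Gabbr2, the partner of Gabbr1, stood at 13.7 ± 1.16 FPKM. At the bottom were Grm2 (0.598 FPKM), Gabrq (0.553), Grin3b (0.403), Gabre (0.152) and Gabra6 (0.0431). Grm6, known from retinal bipolar cells, had at most 1 count in each Q20 and Q175 library of 6 and 10 months and did not pass the filter on low counts at any age. Gabra6, known from cerebellar granule cells, passed it at 6 months only.

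**Figure D1:**
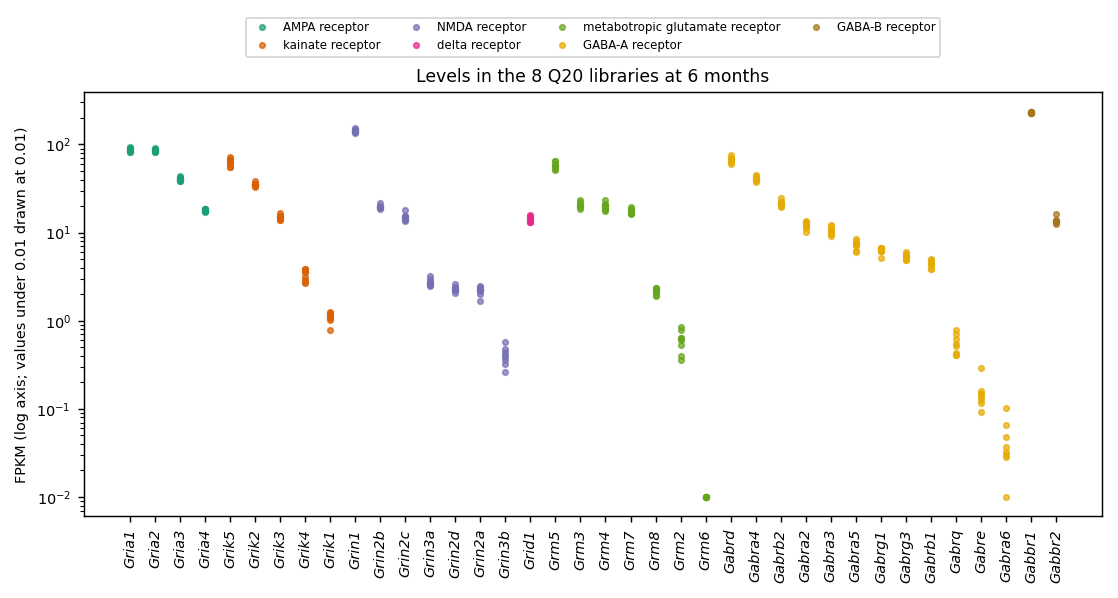
Level of each receptor gene in the 8 Q20 libraries of 6 months, in FPKM on a log axis, with 1 point per library and colours for the receptor class. Gabbr1 stands highest at a mean of 231 FPKM and Grm6 lies at the floor of the plot.

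At 6 months more receptor genes were lower than higher in the longest-repeat line. Of the 37 receptor genes tested, 16 fell and 7 rose in Q175 against Q20 (edgeR quasi-likelihood test, Benjamini-Hochberg adjusted p under 0.05 over all genes), and 14 did not pass. Over all 17642 genes tested, 18.2% fell and 18% rose. The median log2 change of the 37 was -0.06 against 0.01 for all genes. The falls were led by Gabrd and Grik2 and the rises by Grik1. At 10 months 17 of 36 fell and 0 rose, against 12.1% lower and 12.4% higher over all genes, with 18 of the 36 at an unadjusted p under 0.05 in either direction and the same 17 and 0 counted by DESeq2. The median was -0.17 against 0.01 for all genes. Of the 16 that fell at 6 months and the 17 that fell at 10 months, 13 were in both sets. All line comparisons at an age share the same Q20 libraries. The 16 medium spiny neuron markers all fell as well, with a median of -0.71 at 6 months and -0.57 at 10 months, among them Scn4b (-1.46 at 6 months), Pde10a (-0.99) and Arpp21 (-0.96). Their summed level ran from 2910 to 3340 FPKM in Q175 at 6 months, below all Q20 libraries. In tissue RNA fewer cells of a type and less RNA per cell cannot be told apart, and the part of this marker change in the receptor values was not tested.

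**Figure D2:**
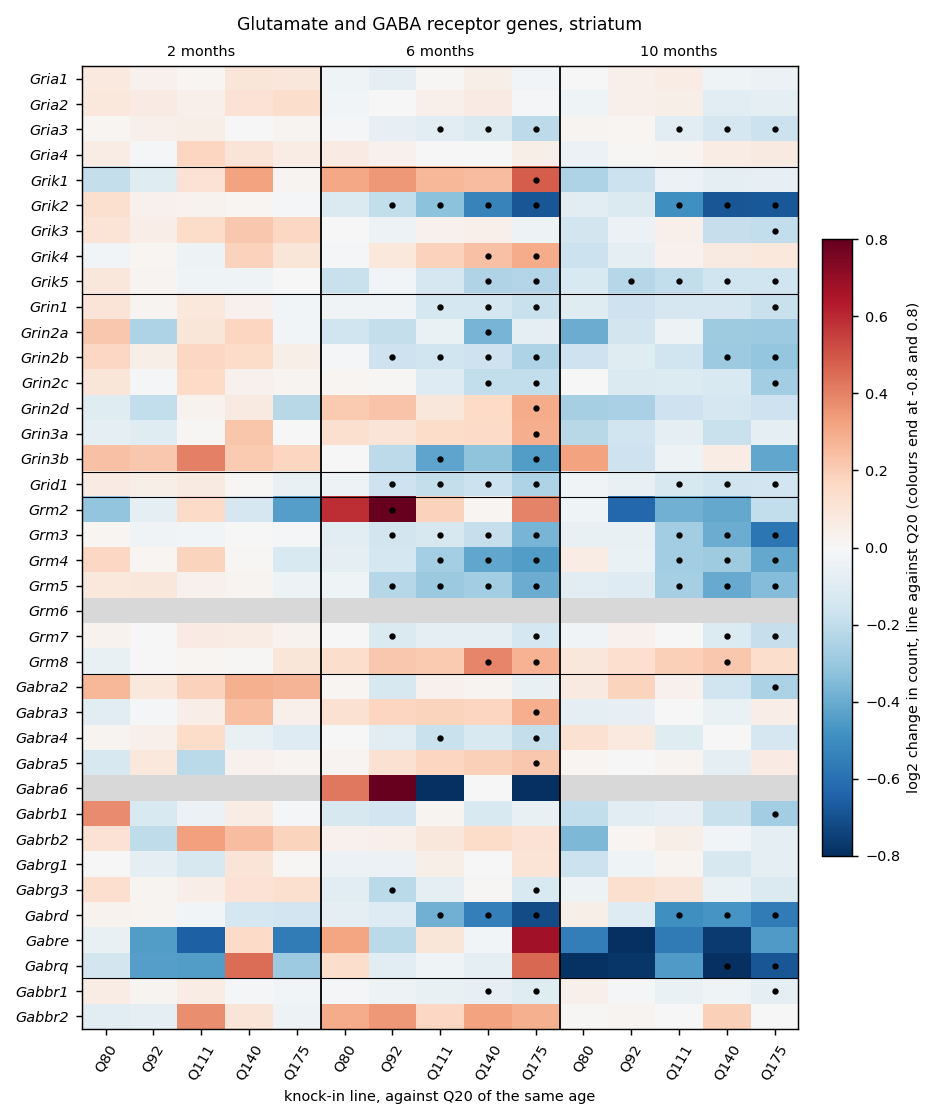
log2 change of each receptor gene in 5 lines against Q20 of the same age, with blue for lower and red for higher, black dots for an adjusted p under 0.05, grey for genes not tested and lines between receptor classes. Dots are absent at 2 months and gather in the blue rows of Grik2, Grm3, Grm4, Grm5 and Gabrd in Q111, Q140 and Q175 at 6 and 10 months.

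A core of 7 genes was lower in each of Q111, Q140 and Q175 at both 6 and 10 months: Gria3, Grik2, Grid1, Grm3, Grm4, Grm5 and Gabrd. Over all genes the share lower in a single one of these comparisons ran from 6.9% (Q111 at 10 months) to 18.2% (Q175 at 6 months). How many of all genes were lower in every one was not counted, and the lines share the Q20 libraries of their age. The 7 receptor genes come from 5 of the 7 classes, and each lies on a different chromosome. Grik2, Grm4, Grm5 and Gabrd kept these calls under all alternatives run for the 3 lines. Gria3 in Q111 lost its call in 4 of 12 alternatives at 6 months (values from -0.095 to -0.06) and in 6 of 10 at 10 months (-0.134 to -0.059), the 3 fits on FPKM among them each time. Grm3 in Q111 lost it in 5 of 12 at 6 months (-0.135 to -0.092), among them the fit without the Q20 library M4. Grid1 at 10 months lost it on all 3 FPKM fits in Q175 and Q111 and on 1 of them in Q140. Promoter sequences (RefSeq, GRCm38.p6, 250 bases before to 50 bases after the start) were at hand for 28 of the 38 receptor genes, and of the 7 for Grik2 and Grm3. Both are printed because these are the members of the core whose start region can be read here. They are written 5′ to 3′ along the gene, with capitals for the motifs found. In Grik2 the capitals mark a CRE half-site on the opposite strand, and in Grm3 a pair of adjoining GC boxes.
Grik2, chr10:49788705-49789004, minus strand: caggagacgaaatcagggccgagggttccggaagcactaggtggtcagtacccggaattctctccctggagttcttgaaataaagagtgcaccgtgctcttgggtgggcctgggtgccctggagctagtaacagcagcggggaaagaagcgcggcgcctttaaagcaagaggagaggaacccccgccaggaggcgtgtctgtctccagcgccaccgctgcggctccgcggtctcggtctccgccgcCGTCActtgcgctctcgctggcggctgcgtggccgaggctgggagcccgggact
Grm3, chr5:9725303-9725602, minus strand: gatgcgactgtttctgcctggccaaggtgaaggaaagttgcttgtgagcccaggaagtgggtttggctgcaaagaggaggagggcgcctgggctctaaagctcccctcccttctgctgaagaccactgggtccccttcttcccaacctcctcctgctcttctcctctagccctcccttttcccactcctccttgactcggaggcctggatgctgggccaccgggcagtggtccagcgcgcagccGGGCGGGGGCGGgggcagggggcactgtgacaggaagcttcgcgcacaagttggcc

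Motifs were searched on both strands of all 32851 promoters and of the 35 that belong to the 28 receptor genes. The CRE half-site TGACG, bound by CREB-type factors, was in 4 of the 35 and in 20.8% of all promoters. The full CRE TGACGTCA, which holds the half-site, was in none of the 35 and in 1.79% of all. The GC box GGGCGG, bound by Sp-type factors, was in 18 of the 35 and in 35.7% of all. TATAAA was in 4 and in 13.6% of all, the AP-1 motif TGANTCA in 2 and in 7.81% of all, and the Egr motif GCGTGGGCG in none and in 0.612% of all. The promoters of the receptor genes had a median GC content of 61.0% against 52.7% over all promoters. A match of letters is a description of the window.

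Among the AMPA receptor genes only the Gria3 test was passed, and the more abundant Gria1 and Gria2 were near the Q20 level. Gria3, whose product joins Gria2 in many forebrain receptors, ran from 199 to 226 CPM (counts scaled to equal library size with TMM factors; median 212) in Q20 and from 170 to 193 CPM (median 185) in Q175 at 6 months. The groups do not overlap, and the log2 change was -0.21 (SE 0.027, adjusted p = 5.47e-10). Gria1 ran from 456.1 to 517.7 CPM in Q20 and from 425.5 to 501.0 CPM in Q175, which overlap, with a log2 change of -0.02 and a 95% interval of -0.11 to 0.07. Gria2, which makes the channel impermeable to calcium in its edited form, ran from 567.0 to 633.7 CPM in Q20 and from 513.9 to 651.4 CPM in Q175, with an interval of -0.11 to 0.08. Gria4 had a log2 change of 0.05 and did not pass. At 10 months Gria3 ran from 205 to 228 CPM in Q20 and from 172 to 201 CPM in Q175 with no overlap (log2 change -0.175, SE 0.031, adjusted p = 1.91e-05), and Gria1, Gria2 and Gria4 did not pass.

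The kainate receptor genes moved apart at 6 months, with 2 lower, 2 higher and 1 not past the test. Over all genes 18.2% were lower and 18% higher. Grik2, a main pore-forming kainate subunit, ran from 147 to 174 CPM (median 156) in Q20 and from 90.04 to 107.6 CPM (median 95.9) in Q175. All 8 Q175 libraries lay below all Q20 libraries, and the log2 change was -0.69 (SE 0.049, adjusted p = 1.94e-21). Grik5, which needs a pore-forming partner to reach the surface, ran from 214 to 281 CPM in Q20 and from 188 to 234 CPM in Q175, with overlap and a log2 change of -0.23 (SE 0.056, adjusted p = 4.52e-04). Grik4, the other subunit of high affinity, was higher in Q175, from 14.7 to 18.5 CPM (median 16.9) against 11.2 to 15.98 CPM (median 13.3), a log2 change of 0.30 (SE 0.071, adjusted p = 4.33e-04). Grik1 rose from a median of 2.94 CPM (2.13 to 3.38) to 3.97 CPM (3.25 to 5.83), a log2 change of 0.49 (SE 0.15, adjusted p = 0.00646). These rises sit on low levels: Grik1 was at 1.10 FPKM and Grik4 at 3.30 FPKM in Q20 against 35.4 FPKM for Grik2. The summed kainate FPKM was 118 in Q20 and 101 in Q175 on average. At 10 months Grik2 kept a gap with no overlap, from 144 to 153 CPM in Q20 and from 85.6 to 110 CPM in Q175 (log2 change -0.68, SE 0.056, adjusted p = 2.05e-14). Grik5 and Grik3 also fell at 10 months, by 0.16 and 0.20 on the log2 scale (adjusted p = 0.0329 and 0.0394, edgeR). Against WT in place of Q20 the change of Grik3 was -0.11 (adjusted p = 0.307), and without the Q175 library F2 both lost the call (adjusted p = 0.0527 for Grik3 and 0.0565 for Grik5).

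Of the 7 NMDA receptor genes, 4 fell and 2 rose at 6 months, against 18.2% lower and 18% higher over all genes. Grin1, present in every NMDA receptor, ran from 539 to 608 CPM (median 574) in Q20 and from 470 to 552 CPM (median 506) in Q175. The ranges overlap slightly and all 8 Q175 libraries lay under the Q20 mean (log2 change -0.18, SE 0.036, adjusted p = 3.65e-05). Exons of Grin1 share 1307 bases, 13.5% of its exon bases, with the antisense gene Grin1os in GENCODE M21, and whether reads were counted by strand is not given in the sources used here. Grin2b, which binds glutamate and is the main partner of Grin1 in striatum by level here, ran from 415 to 480 CPM in Q20 and from 331 to 414 CPM in Q175 with no overlap (log2 change -0.25, SE 0.042, adjusted p = 1.29e-06). Grin2c ran from 59.97 to 83.64 CPM in Q20 and from 50.9 to 72.4 CPM in Q175 (log2 change -0.20, SE 0.059, adjusted p = 0.00487). Grin3b, a glycine-binding subunit of low level, went from a median of 1.073 to 0.75 CPM (log2 change -0.45, SE 0.15, adjusted p = 0.012), and 32.1% of its exon bases lie opposite exons of Tmem259.

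The NMDA genes that rose were scarce ones. Grin3a, whose product lowers calcium entry, ran from 18.4 to 23.4 CPM in Q20 and from 21.6 to 28.1 CPM in Q175 (log2 change 0.29, SE 0.080, adjusted p = 0.00241). Grin2d, known from interneurons and subcortical neurons, ran from 9.40 to 12.4 CPM in Q20 and from 11.4 to 18.6 CPM in Q175 (log2 change 0.29, SE 0.12, adjusted p = 0.0456), and its exons lie opposite Gm45441 over 9.66% of their bases. Grin2a, from 8.10 to 11.6 CPM in Q20 and from 7.62 to 11.7 CPM in Q175, did not pass. Grin2a was called in Q140 alone at that age, at 6.74 to 9.58 CPM with a log2 change of -0.37. At 10 months Grin1 (-0.18, adjusted p = 0.00672), Grin2b (-0.31, adjusted p = 0.0138) and Grin2c (-0.28, adjusted p = 4.43e-04) fell in Q175. The Grin2b libraries then ran from 354 to 424 CPM in Q20 and from 198 to 360 CPM in Q175. Grin3a and Grin2d stood at -0.07 and -0.17 there and did not pass.

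Grid1, the delta-type receptor that bridges synapses rather than opening to glutamate, ran from 75.9 to 90.6 CPM in Q20 and from 66.1 to 71.0 CPM in Q175 at 6 months. No libraries overlap, and the log2 change was -0.24 (SE 0.036, adjusted p = 3.27e-08). At 10 months the ranges were 65.5 to 72.5 CPM and 53.9 to 65.4 CPM, again apart, with a change of -0.15 (SE 0.040, adjusted p = 0.00307).

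The metabotropic glutamate receptors gave the most even picture, with 4 of the 6 tested lower and 1 higher at 6 months, and the same 4 lower at 10 months. Over all genes 18.2% fell and 18% rose at 6 months, and 12.1% and 12.4% at 10 months. Grm5, the group I receptor of medium spiny neurons, ran from 312 to 405 CPM (median 357) in Q20 and from 244 to 292 CPM (median 265) in Q175, apart from each other (log2 change -0.40, SE 0.059, adjusted p = 3.08e-08). Grm3, a group II receptor of glia and neurons that lowers cyclic AMP, ran from 65.8 to 83.7 CPM in Q20 and from 53.0 to 59.8 CPM in Q175 (log2 change -0.375, SE 0.041, adjusted p = 1.81e-12). Grm4, a group III receptor found on striatal output terminals, ran from 77.7 to 105 CPM in Q20 and from 58.1 to 78.0 CPM in Q175. The ranges of Grm4 touch through 1 library, Q175 M4, and the change was -0.45 (SE 0.053, adjusted p = 2.60e-11). Grm7 fell less, by 0.14 on the log2 scale (adjusted p = 0.00118). Grm8, also of group III, rose from a median of 7.61 CPM (6.93 to 8.45) to 9.24 CPM (7.79 to 10.9), a change of 0.28 (SE 0.078, adjusted p = 0.00248). At 10 months the gap of Grm3 was -0.58 (SE 0.054, adjusted p = 1.81e-12), with 67.5 to 79.2 CPM in Q20 and 45.9 to 52.5 CPM in Q175. Grm5 (-0.35), Grm4 (-0.41) and Grm7 (-0.18) fell there too, with adjusted p = 8.90e-05, 1.15e-06 and 3.99e-04 from edgeR. Grm2, a scarce group II receptor, did not pass in Q175 at either age.

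Among the 12 GABA-A receptor genes at 6 months 3 fell, 2 rose and 7 did not pass, against 18.2% lower and 18% higher over all genes. Gabrd ran from 132 to 167 CPM (median 147) in Q20 and from 80.3 to 94.9 CPM (median 89.8) in Q175. No libraries overlap, and the log2 change of -0.71 (SE 0.043, adjusted p = 7.19e-26) was the largest among the receptor genes past the test at that age. Gabrd held 38.2% of the summed FPKM of the 12 genes in Q20 and 28.0% in Q175. Gabra4, the alpha subunit that pairs with delta outside synapses in striatum, ran from 155 to 187 CPM in Q20 and from 140 to 159 CPM in Q175 (log2 change -0.19, SE 0.056, adjusted p = 0.00462). Gabrg3 fell by 0.12 on the log2 scale (adjusted p = 0.0261). The call of Gabrg3 was lost without the Q175 library M4 (-0.11, adjusted p = 0.0565), with tissue scores (-0.06, adjusted p = 0.225) and against WT (-0.04, adjusted p = 0.403). Gabra3 rose from 32.9 to 43.9 CPM in Q20 to 43.1 to 49.7 CPM in Q175, with overlap at the edge (log2 change 0.29, SE 0.084, adjusted p = 0.0039). Gabra5 went from 16.1 to 22.5 CPM to 20.1 to 25.0 CPM (log2 change 0.21, SE 0.083, adjusted p = 0.0355), and 4.98% of its exon bases lie opposite Gm9962.

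The other GABA-A genes included the abundant Gabrb2, from 80.3 to 98.8 CPM in Q20 and from 86.4 to 97.8 CPM in Q175, a beta subunit that forms part of the GABA site. Its change of 0.11 did not pass (95% interval -0.02 to 0.25). Gabra2, Gabrb1 and Gabrg1 had changes of -0.06, -0.06 and 0.11, while Gabre (0.67), Gabrq (0.46) and Gabra6 (-1.16) had group means of 3.34 CPM or less and did not pass. At 10 months Gabrd ran from 107 to 140 CPM in Q20 and from 74.1 to 89.1 CPM in Q175 with no overlap (log2 change -0.56, SE 0.050, adjusted p = 4.46e-13). Gabra2 (-0.25), Gabrb1 (-0.28) and Gabrq (-0.68) were also lower than in Q20, with adjusted p = 0.0327, 0.0262 and 0.044 from edgeR. These 3 calls rest on Q20 as the reference: against WT housed with Q20 the changes were -0.18, -0.14 and 0.26, and none passed. Gabrq ran from 1.33 to 9.17 CPM in Q20, from 2.03 to 5.32 CPM in Q175 and from 1.86 to 3.76 CPM in those WT libraries. Gabra4 and Gabrb1 lie on opposite strands of chromosome 5 and share 46 exon bases. Without the Q175 library F2 the change of Gabrq was -0.615 (adjusted p = 0.0871).

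For the GABA-B receptor, Gabbr1 had a small and narrow change. It ran from 782.6 to 834.2 CPM in Q20 and from 735.8 to 786.4 CPM in Q175 at 6 months, with a log2 change of -0.10 (SE 0.022, adjusted p = 1.51e-04), and at 10 months it was -0.075 (adjusted p = 0.0217). Gabbr2 had changes of 0.28 and 0.002 with standard errors of 0.17 and 0.20 and did not pass at either age.

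The 7 genes that rose in Q175 at 6 months were Grik1, Grik4, Grin2d, Grin3a, Grm8, Gabra3 and Gabra5, and none passed against Q20 at 10 months. The 12 cortical markers summed to a median of 65.0 FPKM (60.8 to 112) in Q20 and 85.3 FPKM (73.9 to 99.8) in Q175, and 1 of the 12 was called higher. The 8 thalamic markers summed to a median of 23 FPKM (19.1 to 35.2) and 38.6 FPKM (22.9 to 131), with 0 of 8 called, and no marker of either list was at 0 throughout. The reference itself was low in cortical markers at 6 months. Its median cortical score, -0.881, was the lowest of all groups of that age, with WT housed with Q80 next at -0.55. Q175 stood at 0.135 and WT housed with Q20 at 0.11. At 10 months the Q20 median was -0.0258. The part of this in the rises was not tested. With scores of cortical, thalamic and choroid plexus markers as terms of the fit, Grik4 (0.23), Grm8 (0.28) and Gabra5 (0.23) stayed past the test with adjusted p = 0.00276, 0.00187 and 0.00284. Grik1 (0.22), Grin2d (0.08), Grin3a (0.16) and Gabra3 (0.11) did not. In the same fit Gria1 was called at 0.07 and Gabbr2 at -0.13. Against all WT of 6 months, Grik1, Grik4, Grm8, Gabra3 and Gabra5 passed, and Grin2d (0.11, adjusted p = 0.349) and Grin3a (0.14, adjusted p = 0.051) did not. Without the Q20 library M4, Grin2d and Gabra5 lost the call (adjusted p = 0.0637 and 0.0953), and without the Q175 library M4 they lost it as well (adjusted p = 0.161 and 0.0503). Against WT at 10 months, 4 of these genes were higher in Q175: Grik4 (0.23), Grm8 (0.23), Gabra3 (0.18) and Gabra5 (0.28), with adjusted p = 0.00596, 0.0139, 0.0193 and 0.0126. There Gabra4 was lower as well, at -0.31.

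**Figure D3:**
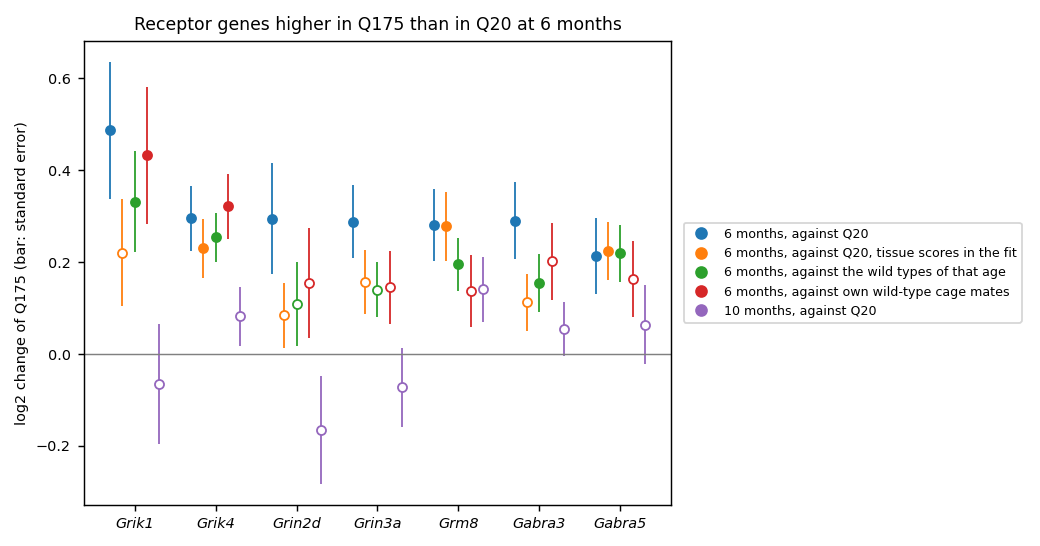
log2 change of Q175, with its standard error, for the 7 receptor genes higher than Q20 at 6 months, under 5 comparisons; filled points have an adjusted p under 0.05 and open points do not. Only Grik4 is filled in all 4 comparisons of 6 months, and no point of 10 months against Q20 is filled.

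The wild-type cage mates of each line gave a reference that shares no library with Q20. In Q175 at 6 months 15 of 37 fell and 3 rose against them, with 16.1% lower and 15.7% higher over all genes. On log2(FPKM + 1), tested with limma, 11 of 33 fell and 7 rose, with 1558 of 13966 genes lower and 5379 higher in all. Of the calls on counts, 14 of the falls and 2 of the rises were among those called against Q20. Both comparisons use the same 8 Q175 libraries and the same fit, so this overlap is no separate support. The falls included Gabrd (-0.67, adjusted p = 6.92e-24), Grik2 (-0.63, adjusted p = 1.92e-19), Grm3 (-0.40), Grm5 (-0.44), Grm4 (-0.43) and Gria3 (-0.25). In each of these 6 genes all 8 Q175 libraries lay under all 8 cage-mate libraries. Grik1 (0.43) and Grik4 (0.32) rose, and the third was Gabre (0.79, adjusted p = 0.042), with means of 1.002 CPM in Q175 and 0.577 CPM in the cage mates. Gabre lost the call with the replicate number as a block (0.77, adjusted p = 0.0528), and also with no filter on low counts, with tissue scores and with only the groups compared, 4 of 10 alternatives with values from 0.129 to 0.96 over all 10. Grik1 lost it with tissue scores, at 0.265. In Q140 11 fell and 2 rose against its own cage mates (11.7% and 12.4% over all genes), and in Q111 7 fell and 1 rose (4.66% and 4.28%), the rise being Gria2 at 0.15. On log2(FPKM + 1), of the 33 receptor genes tested 8 fell and 4 rose in Q140 (1333 genes lower and 3560 higher of 13966). In Q111 5 fell and 4 rose (25.3% of all calls lower against 52.1% on counts). In Q92 and Q80 none of the 37 passed against cage mates, with 0.051% of all genes called in each and 2 receptor genes at an unadjusted p under 0.05 in each; DESeq2 called 0 as well. No receptor gene passed in Q20 against its own WT at 2, 6 or 10 months by edgeR or DESeq2, with 0%, 0.0227% and 0.0116% of all genes called and 1, 4 and 9 receptor genes at an unadjusted p under 0.05.

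Between the lines the count of falls at 6 months was higher at each longer nominal repeat, all against the same Q20 libraries. Q140 had 13 falls and 2 rises among the 37 (14.1% and 13.8% over all genes), Q111 11 falls and 0 rises (7.45% and 5.37%, 18 at an unadjusted p under 0.05 in either direction, 12 and 0 by DESeq2), Q92 7 falls and 1 rise (2.99% and 3%), and Q80 0 of either, with 0.289% of all genes called, 7 receptor genes at an unadjusted p under 0.05 and 0 by DESeq2. All 11 falls of Q111 were among the 16 of Q175. On log2(FPKM + 1), 33 receptor genes and 13966 genes in all were tested. The falls and rises were 11 and 9 in Q175 (1755 genes lower and 5469 higher in all) and 12 and 6 in Q140 (1522 and 4045). They were 8 and 2 in Q111 (869 and 1727) and 6 and 1 in Q92 (312 and 1131). On that scale the count of falls was not higher in Q175 than in Q140. Grik2 had medians of 152 CPM in Q80, 138 in Q92, 125 in Q111, 108 in Q140 and 95.9 in Q175. Its log2 changes were -0.11, -0.20, -0.33, -0.54 and -0.69 in that order, the first not past the test. Gabrd had medians of 140, 134, 113, 99.4 and 89.8 CPM and changes of -0.08, -0.11, -0.38, -0.55 and -0.71, of which the last 3 passed. Grm5 had -0.03, -0.23, -0.29, -0.28 and -0.40 and passed in all but Q80. The falls of Q92 were Grik2, Grin2b, Grid1, Grm3, Grm5, Grm7 and Gabrg3. With tissue scores in the fit 1 of these calls was left, that of Gabrg3, and with only Q92 and Q20 in the fit 2 were, Grid1 and Gabrg3. The rise was Grm2, from a median of 2.09 CPM (1.20 to 2.84) in Q20 to 2.61 CPM (1.796 to 12) in Q92, a log2 change of 1.06 (SE 0.27, adjusted p = 0.0109). The library at 12 CPM is Q92 F2, and 8 of the 12 cortical markers were higher in Q92 with a median of 1.57. Without it the change was 0.59 (adjusted p = 0.202), with tissue scores 0.20 (adjusted p = 0.714), and 5 falls and 0 rises were left without it. The median cortical score was 0.286 in Q92 and -0.881 in Q20, the lowest of the groups of 6 months.

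Fitted as a straight line through the 6 knock-in lines, the log2 change for each 10 repeats was lower for 15 and higher for 6 of the 37 at 6 months, with 19.6% and 20.3% over all genes. The steepest were Gabrd at -0.051 (SE 0.0038, adjusted p = 7.66e-15) and Grik2 at -0.047 (SE 0.0037, adjusted p = 1.59e-14), and the trend treats libraries as independent although the repeat differs only by line. At 10 months it was lower for 17 of 36 and higher for 0 (20 at an unadjusted p under 0.05 in either direction, 17 and 1 by DESeq2), with 16.9% and 15.9% over all genes, led by Grik2 at -0.053 (adjusted p = 2.87e-12), Gabrd at -0.044 and Grm3 at -0.040. On log2(FPKM + 1) the trend was lower for 13 of 33 and higher for 8 at 6 months (1922 and 5678 of all 13785 genes tested). At 10 months it was lower for 11 of 34 and higher for 3 (1527 and 5024 of 13845). Q175 and Q140 were compared directly as well. At 6 months 1 gene passed, Grm3, with 53.0 to 59.8 CPM in Q175 and 60.5 to 69.9 CPM in Q140, a log2 change of -0.19 (adjusted p = 0.0155), while 0.21% of all genes were called. At 10 months none of 36 passed, with 0.414% of all genes called, 3 receptor genes at an unadjusted p under 0.05 and 0 by DESeq2.

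The core genes were picked for being lower than Q20 in Q111, Q140 and Q175 at both ages. Their levels at 10 months describe that choice and are no separate support for it. Grik2 ran from 102 to 113 CPM in Q111, from 80.6 to 99.4 CPM in Q140 and from 85.6 to 110 CPM in Q175, all under the lowest Q20 library at 144. Gabrd ran from 70.5 to 94.9 CPM in Q111 and from 78.8 to 93.8 CPM in Q140, under the lowest Q20 library at 107. Among the 36 genes tested at 10 months Q140 had 11 falls and 1 rise (11.6% and 10.9% over all genes), the rise being Grm8 at 0.21, Q111 had 8 falls and 0 rises (6.9% and 5.58%, 11 at an unadjusted p under 0.05 in either direction, the same by DESeq2), Q92 had 1 fall, Grik5 at -0.23 (adjusted p = 0.0237, 1.12% of all genes called), and Q80 had none (0.122%, 9 receptor genes at an unadjusted p under 0.05, 0 by DESeq2). The 11 falls of Q140 and the 8 of Q111 were all among the 17 of Q175. On log2(FPKM + 1), 34 receptor genes and 13897 genes in all were tested at 10 months. The falls and rises were 9 and 1 in Q140 (1214 genes lower and 3376 higher in all). In Q111 they were 6 and 0 (34.6% of all calls lower against 55.3% on counts).

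**Figure D4:**
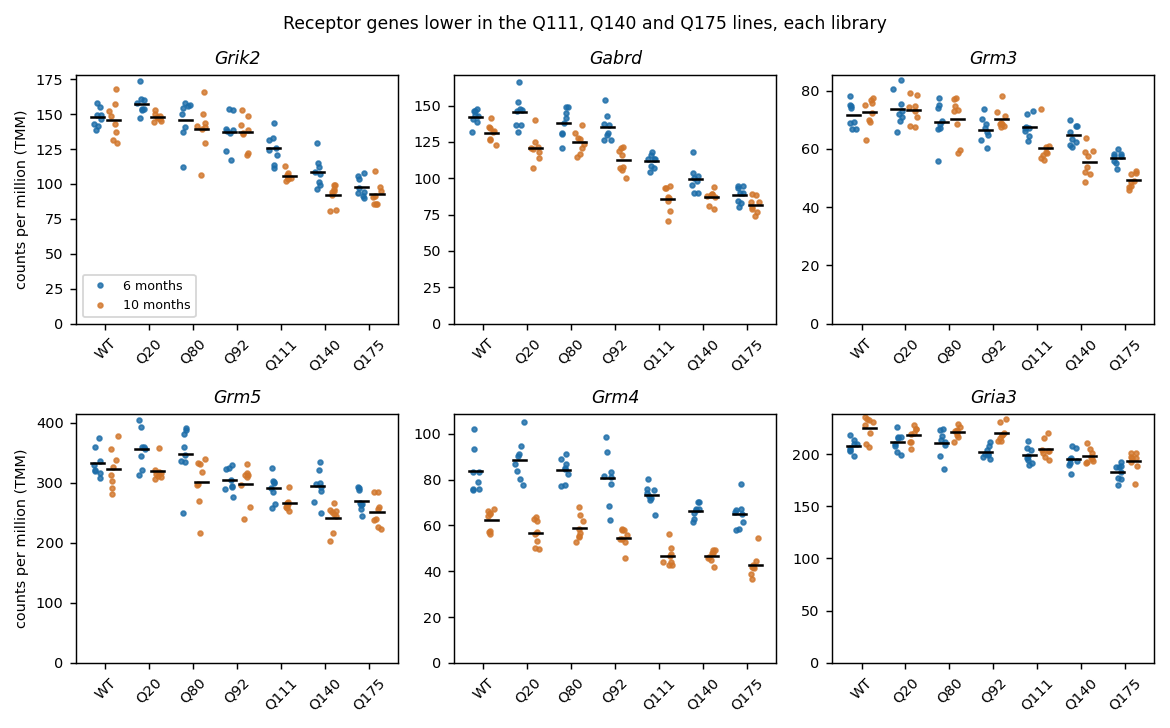
Level of 6 of the 7 receptor genes lower in Q111, Q140 and Q175, in TMM-scaled CPM for each library of 6 months (blue) and 10 months (orange), with bars for the group means; WT are those housed with Q20. The levels of Grik2 and Gabrd step down from Q92 to Q175 at 6 months, and at 10 months all libraries of Q111, Q140 and Q175 lie below all Q20 libraries for both genes.

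At 2 months no receptor gene of the 36 tested was called in a line against Q20 by edgeR or DESeq2, also without the 5 libraries of low correlation, the 7 of high mitochondrial share or Q80 M3. Over all genes 0.218% were called in Q175, 0% in Q140, 0.0176% in Q111, 0% in Q92 and 0.0118% in Q80, and 1, 2, 8, 0 and 2 receptor genes had an unadjusted p under 0.05. Errors were wider than later, with a median standard error of 0.10 for Q175 against Q20 against 0.059 at 6 months. Grik2 ran from 113 to 179 CPM in Q20 and from 116 to 170 CPM in Q175, and the 95% interval of its log2 change, -0.19 to 0.17, does not hold the value of 6 months. Gabrd ran from 124 to 159 CPM in Q20 and from 110 to 138 CPM in Q175 (log2 change -0.15, interval -0.29 to -0.02, adjusted p = 0.81). The trend with repeat length called none of the 36, with 0.354% of all genes called and 1 receptor gene at an unadjusted p under 0.05. Without the 5 libraries of low correlation the trend called 1, Grin1, and without the 7 libraries of high mitochondrial share it called 2, Grin1 and Grid1, both lower.

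The age at which the gap to Q20 opened was tested as a difference of differences. Between 2 and 6 months the Q175 effect moved down for 5 of 36 receptor genes and up for 2, against 3.73% and 1.72% of all genes. The 5 were Grik2 (-0.68, SE 0.10, adjusted p = 5.76e-05), Gabrd (-0.56, SE 0.077, adjusted p = 1.35e-05), Grm3 (-0.37), Grm4 (-0.32) and Gria3 (-0.23), and the 2 were Grin2d (0.51) and Gabre (1.26). Without the 5 libraries of low correlation Grm4 and Gabre were not called, and Grin3a (0.43) and Gabra3 (0.35) were. Between 6 and 10 months none of 36 passed (0.0175% of all genes called, 10 receptor genes at an unadjusted p under 0.05). The smallest adjusted p there was that of Grm3, 0.0848, with a difference of -0.22. No receptor gene passed the test of the Q175 effect in females against that in males at 6 months (0% of all genes called, 0 receptor genes at an unadjusted p under 0.05) or at 10 months (0% and 2).

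Genes of receptor partners were counted in the same comparison, in which 18.2% of all genes fell and 18% rose at 6 months and 12.1% and 12.4% at 10 months. Of 19 genes for auxiliary subunits of AMPA and kainate receptors, 10 fell and 5 rose in Q175 at 6 months, with a median of -0.17, and 10 fell and 1 rose at 10 months. Gsg1l, an AMPA receptor partner that slows recovery from desensitisation, fell from a mean of 176 to 94.4 CPM (-0.90, adjusted p = 4.68e-25), and Neto2, which tunes kainate receptors, from 135 to 78.0 CPM (-0.785, adjusted p = 8.83e-18). Cnih3, which slows AMPA receptor currents, rose from 8.95 to 15.2 CPM (0.77, adjusted p = 3.49e-05). Of 22 postsynaptic scaffold genes 9 fell and 5 rose (median 0.02), with falls in Homer1, which links group I metabotropic receptors to calcium stores (-0.79), Shank3 (-0.57) and Camk2b (-0.49). Of 13 scaffold and partner genes of GABA receptors 5 fell and 2 rose (median -0.03), among them Kctd16, a GABA-B partner, at -0.33. Of 8 genes of GABA synthesis and transport 1 fell and 1 rose (median 0.02). Of 9 genes of glutamate release and uptake 5 fell and 2 rose, including Slc1a2, the main astrocyte glutamate transporter, at -0.33 and Slc1a6 at 0.47.

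Markers of the cell types in the tissue were counted in the same comparison at 6 months, with the same 18.2% lower and 18% higher over all genes. The 5 markers of D2-type neurons had 4 falls and a median of -0.75, and their summed level had a median of 1370 FPKM in Q20 and 664 FPKM in Q175. The 6 of D1-type neurons had 3 falls and 2 rises with a median of -0.17. Falls were counted for 4 of 10 interneuron, 2 of 8 astrocyte, 2 of 8 oligodendrocyte, 2 of 8 microglia and 7 of 8 endothelial and mural markers, and rises for 2 of 6 oligodendrocyte precursor and 2 of 6 cerebellar granule neuron markers. None of the 8 choroid plexus markers was called. At 10 months 12.1% of all genes were lower and 12.4% higher. Of the markers, 5 of 8 astrocyte fell and 1 rose, and 3 of 8 oligodendrocyte fell and 2 rose. Falls alone were counted for 5 of 10 interneuron, 4 of 8 endothelial and mural, 4 of 5 D2-type and 1 of 8 microglia markers. Of 6 D1-type markers 3 fell and 1 rose, and of 6 cerebellar granule neuron markers 2 rose. The part of these in the receptor values was not tested.

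The scale of measurement bears on the balance of rises and falls. On the authors' FPKM, tested with limma on log2(FPKM + 1), 11 of 33 receptor genes fell and 9 rose in Q175 at 6 months. At 10 months 9 of 34 fell and 1 rose. In all, 13966 and 13897 genes were tested on FPKM at these ages, against 17642 and 17170 on counts. Over all genes the split at 6 months was 1755 lower and 5469 higher on FPKM against 3203 lower and 3179 higher on TMM-scaled counts, and at 10 months 1208 and 4034 against 2076 and 2136. The median change of all genes at 6 months was 0.07 on FPKM and 0.01 on counts. In Q175 against Q20, Grik2, Gabrd, Grm3, Grm4, Grm5 and Gria3 fell on both scales at both ages. Gabbr1, Gabra4 and Grin2c were among the falls not called on FPKM at 6 months. They are not the full list, as 16 receptor genes fell on counts at 6 months and 17 at 10 months.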

How the data were processed

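Striatal polyadenylated RNA was measured in 208 libraries. The submitters' processing notes name CASAVA 1.8.2. The aligner and build were not given in the sources at hand. The authors' deposited expected counts are estimated counts per gene (32.7% of the values above 0 were not whole) and were rounded. The authors' deposited FPKM are scaled for depth and gene length. For each age edgeR 4.0.16 in R 4.3.3 was run on the counts of all groups, with filterByExpr (minimum count 10, minimum total 15), TMM factors, 1 term per group and sex, and a robust quasi-likelihood test. A gene was called where its p, adjusted by Benjamini-Hochberg over all genes, was under 0.05. The standard error is the log2 change over the square root of F. Alternatives were DESeq2 1.42.0, limma 3.58.1 on log2(FPKM + 1) or log2(FPKM + 0.1) with genes at 1 FPKM or more in at least 8 libraries or with no filter, other size factors, no count filter, tissue scores, a replicate block, other references and libraries left out. The code was tested on simulated data. Total counts were 29.1 M to 49.6 M per library.

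Replicate numbers recur in each group. At 6 months the deviations of same-numbered Q20 and Q175 libraries from their group and sex means correlated at 0.13 to 0.37 over all 8 pairs. The numbers were taken as pairing there, from the data and not from the labels. The basis is weak, as only 4 of the 8 Q20 libraries correlated best with their own number. The main fits hold no term for the pairing, and the replicate block was run as an alternative. At 2 and 10 months the correlations ran from -0.32 to 0.14 and from -0.26 to 0.11. The receptor genes and the lists of partner and marker genes were chosen with earlier results of these data known. All members are accounted for. Levels per group are given for those called in Q175 against Q20 and for abundant ones, and up to 3 called genes are named for a partner list. Exon overlaps come from GENCODE M21. The median correlation with other libraries was used to single out 2-month libraries under 0.97.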

Additional observations from a re-analysis of the deposited data

Results flagged for a closer look

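In groups of 8, a library was singled out where its gap to the nearest other library, over the range of the group, passed Dixon's critical value of 0.526. This was run for 27 receptor genes in 4 groups each, 108 in all, and chance alone picks about 1 in 20. It found 12. In Q175 at 10 months library F2 was highest for Grin2d at 14 CPM (next 11.2), Grm4 at 54.5 (next 44.3), Gabra4 at 222 (next 189) and Gabrb1 at 16.3 (next 13.3), and library M4 was lowest for Gria3 at 172 (next 189) and Gabrg3 at 31.8 (next 39.1). In Q175 at 6 months library M4 was highest for Grin2d at 18.6 CPM (next 14.4) and Grm4 at 78.0 (next 67.0), and library M1 for Gabrq at 6.97 (next 3.41). F2 at 10 months and M4 at 6 months also had the highest thalamic marker scores of their groups, 1.89 and 1.94, and the part of this in the values was not tested. Without M4 Grm4 was at -0.48 in Q175 against Q20 at 6 months, and without F2 it was at -0.47 at 10 months. In Q20 at 6 months library M4 was highest for Grin2c at 83.6 CPM (next 70.1). In Q20 at 10 months library F5 was highest for Grm5 at 358 CPM (next 321) and library M1 lowest for Gabra5 at 16.5 (next 20.6).

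The Q175 effect at 6 months differed from that at 2 months, by the interaction test of edgeR, for 7 receptor genes: Gria3 (-0.23), Grik2 (-0.68), Grm3 (-0.37), Grm4 (-0.32) and Gabrd (-0.56) on the lower side, and Grin2d (0.51) and Gabre (1.26) on the higher side. The adjusted p of Gabre was 0.0499 and that of Grm4 0.0452.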

How the results depend on the processing

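Of the 16 receptor genes lower in Q175 than in Q20 at 6 months, 11 kept their call in that direction under all 13 alternatives, and of the 7 higher, 2 did (Grik4 and Grm8). At 10 months 8 of the 17 lower did, under all 11. How many of all genes kept their call was not counted. The lowest and highest values were -0.70 and -0.58 for Grik2 and -0.73 and -0.58 for Gabrd at 6 months. With the replicate number as a block the count was 23 in Q175 against Q20 at 6 months, 7 of them higher, and 17 at 10 months. The block ended 3 calls: Gabre against the cage mates of Q175 (0.77), and, where the numbers pair no samples, Grm7 in Q140 (-0.10) and Gria3 in Q111 (-0.08) at 10 months. It moved no count by over 1.5 times.

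Counts of receptor genes called that moved by over 1.5 times were these. On log2(FPKM + 1) with no filter, Q111 had 7 at 6 months (792 genes lower and 1387 higher of all 29019) and Q92 had 5 (226 and 816). At 10 months Q175 had 8 (1268 and 3822 of 28796) and Q111 had 5 (814 and 1262). With the filter, Q175 at 10 months had 10 on log2(FPKM + 1) (1208 and 4034 of 13897) and 10 on log2(FPKM + 0.1) (1198 and 4020). For the alternatives that follow, shares over all genes are not given here. A change in those counts cannot be told from a general change in calls. Q92 at 6 months had 1 with tissue scores, 5 without F2, 5 with WT as the reference and 2 with only its groups in the fit, against 8. Q92 against its cage mates had 1 with tissue scores, against 0. Q175 against Q140 at 6 months had 2 with DESeq2, with tissue scores and with the L code of the labels as a covariate, against 1. Q92 at 10 months had 2 with WT as the reference and 0 with only its groups, against 1. The 2-month trend had 1 without the libraries under 0.97 and 2 without those over 17% mitochondrial, the latter chosen after seeing the data, against 0. The change of the Q175 effect from 2 to 6 months had 4 with no filter on low counts, against 7. Gabrq turned to 0.26 in Q175 and to 0.12 in Q140 at 10 months with WT as the reference. Without Q20 the 10-month trend turned to 0.003 for Gabrq and to 0.001 for Grik5. The causes were not tested. Leaving out Q175 M4 at 6 months (20 called), Q175 F2 at 10 months (14) and the low-correlation libraries from the age comparison (7) were also chosen after seeing the data. The median standard error of Q175 against Q20 was 0.10 at 2 months and 0.059 at 6 months, so small changes are harder to detect at 2 months. Its part in the counts of 0 there was not tested.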
